A study of Mus musculus with 10 samples.

Results

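Interleukins are secreted messengers of the immune system, and most act through receptors built of several chains. Among the genes counted in regenerating mouse muscle, the interleukin and interleukin receptor genes were taken as all protein-coding genes whose symbol begins with Il and a digit and that had at least 10 reads in at least 5 of 10 mice. The rule kept 45 of the 84 genes with such a symbol, out of 25700 genes listed. They comprised 27 receptor chains, 14 ligands, 2 secreted antagonists (*Il1rn* and *Il18bp*), 1 decoy receptor (*Il1r2*) and 1 enzyme (*Il4i1*, a secreted amino acid oxidase). The symbol decided membership, so interleukin receptor chains with other names, such as *Csf2rb* or *Lifr*, are described separately below.

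The RNA came from the tibialis anterior (TA), a muscle of the lower hindlimb, of 12-week-old male mice. All muscles were taken 6 days after injection of cardiotoxin, a snake venom toxin that destroys myofibers while sparing many muscle stem cells, so there was no uninjured muscle to compare with. The 5 control mice, Pax7Cre, are labelled wild type and carry Cre recombinase under the promoter of *Pax7*, a muscle stem cell gene. The 5 miR-501KO mice are labelled miR-501 −/− and, by the series design, carry the same Cre with a floxed, X-linked miR-501 allele, so Cre was common to both groups. This Cre is active from development on, mainly in myogenic cells and their descendants, so most immune, endothelial and stromal cells of the muscle keep the allele. The muscle holds all these cells together, and in such bulk RNA fewer cells of a type and less RNA per cell cannot be told apart.

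Interleukin receptors fall into families that share a chain. Receptors for IL-6 and IL-11 share gp130, encoded by *Il6st*, and receptors for IL-2, IL-4, IL-7, IL-9, IL-15 and IL-21 share the common gamma chain, encoded by *Il2rg*. These families signal through JAK kinases and STAT transcription factors. Receptors of the IL-1 family (IL-1, IL-18, IL-33, IL-36) signal instead through MyD88 and IRAK kinases to NF-kB. In injured muscle, interleukins from infiltrating and resident cells are known for steering macrophages, T cells, fibro-adipogenic progenitors and muscle stem cells.

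The deleted microRNA bears on these genes through possible target sites. The mature miR-501-3p sequence in RefSeq (GRCm38, chrX:7241270-7241291, minus strand, 22 bases) is given here with bases 2 to 8, the seed that pairs with target mRNAs, in capitals.
miR-501-3p: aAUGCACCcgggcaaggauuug
The complement of this seed, GGTGCAT, was searched on the sense strand in every annotated 3′ untranslated region (3′ UTR) of GENCODE M21 transcripts. It lay in a 3′ UTR of 6 of the 45 genes (13.3%), compared with 1052 of 13989 genes tested that have an annotated 3′ UTR (7.52%). The 29 transcript bases around each match are shown 5′ to 3′ with the match in capitals, because these 6 genes are the ones to set beside the genotype comparison.
Il6st, chr13:112483438-112483444, plus strand: caaaattataaGGTGCATcttgagtttac
Il21r, chr7:125632441-125632447, plus strand: gcctggtcactGGTGCATaatccccttgg
Il1rl2, chr1:40366537-40366543, plus strand: atgagagacacGGTGCATtcacggtttct
Il17rd, chr14:27106232-27106238, plus strand: aaaaatatcatGGTGCATatgctcaatca
Il16, chr7:83643312-83643318, minus strand: agtcaggtgcgGGTGCATcttttaaatgt
Il11, chr7:4773343-4773349, minus strand: gggggtgggtgGGTGCATctgagaccctg
The match was in every annotated coding transcript of *Il11* (3 of 3), in 2 of 4 of *Il16* and in only 1 each of *Il6st* (of 9), *Il17rd* (of 4), *Il1rl2* (of 3) and *Il21r* (of 2). The unbroken complementary run through the match was longest in *Il16*, at 9 bases, followed by *Il11* and *Il1rl2* at 8 each, and was 7 in the other 3 genes. The base after the match was A in *Il21r* and *Il17rd*, T in *Il1rl2*, and C in *Il6st*, *Il16* and *Il11*. Run length was not taken as a rank of site strength. The match is a sequence description and does not show that the site is used.

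Between 18609222 and 24753258 reads were counted on genes per mouse, with a median of 21438248 in Pax7Cre and 23534067 in miR-501KO. Mitochondrial genes took 6.59% to 14.0% of the reads. Levels are given as normalized counts (CPM, a gene's reads relative to all reads of its library, scaled with TMM factors), and levels of different genes are compared per length, as CPM per kilobase of merged annotated exons. Errors are SD over 5 mice per genotype. One control library, Pax7Cre mouse 2, stood apart from the other 9 on the first principal component (score 43.9, others −27.5 to 16.9), with the highest level of all 9 mature fiber markers. Pax7Cre mouse 4 lay farthest the other way (−27.5, the next at −8.97), with the lowest sum of these markers and the lowest mitochondrial share. Results without each of these mice are given at the end. *Mir501* is not among the genes counted, so the deletion was not checked here.

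Receptor genes were retained more often than ligand genes. Of 40 receptor genes listed, 27 (67.5%) met the rule, compared with 14 of 37 ligand genes (37.8%). The rule is on reads not corrected for gene length, which favours longer transcripts, and the lengths of the listed genes were not compared. Of the 23 ligand genes left out, 9 had no read in any mouse, 9 had fewer than 10 reads over all mice and 5 had more, up to 88 (*Il27*). Counting error bounds a gene without reads only at 3 reads over the 10 libraries, or 0.0138 CPM. The 13 receptor genes left out had at most 73 reads (*Il9r*), and 4 had none, 3 of which are copies of *Il11ra2*. Just inside the rule lay *Il7* (2 to 16 reads per mouse), *Il17b* (4 to 20) and *Il1a* (9 to 54). Just outside lay *Il27* (2 to 18) and *Il6* (3 to 12).

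Per length, the most abundant genes were receptors too. The median level was 3.53 CPM per kb over the receptors (0.401 to 25.2) and 1.79 over the ligands (0.0700 to 6.91). No ligand exceeded 10 CPM per kb, while 7 receptors did. These were the common gamma chain *Il2rg* (25.2), gp130 *Il6st* (22.9), the IL-10 receptor chains *Il10ra* (19.1) and *Il10rb* (17.6), the IL-4 and IL-13 receptor chains *Il4ra* (13.7) and *Il13ra1* (13.4), and the IL-11 receptor *Il11ra1* (12.4). Neighbours in this order overlapped between mice. *Il2rg*, for example, ranged from 20.5 to 29.8 CPM per kb and *Il6st* from 19.7 to 24.8. The order also depended on the length used. Per kb of the longest coding transcript, *Il10rb* (36.3) and *Il2rg* (36.0) came first and *Il11ra1* reached 27.7, close to *Il6st* (29.3). *Il2rg* and *Il10rb* each overlap another gene on the same strand, *Gm20489* and *Gm21970*, and reads shared with these could have been split or lost.

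**Figure D1:**
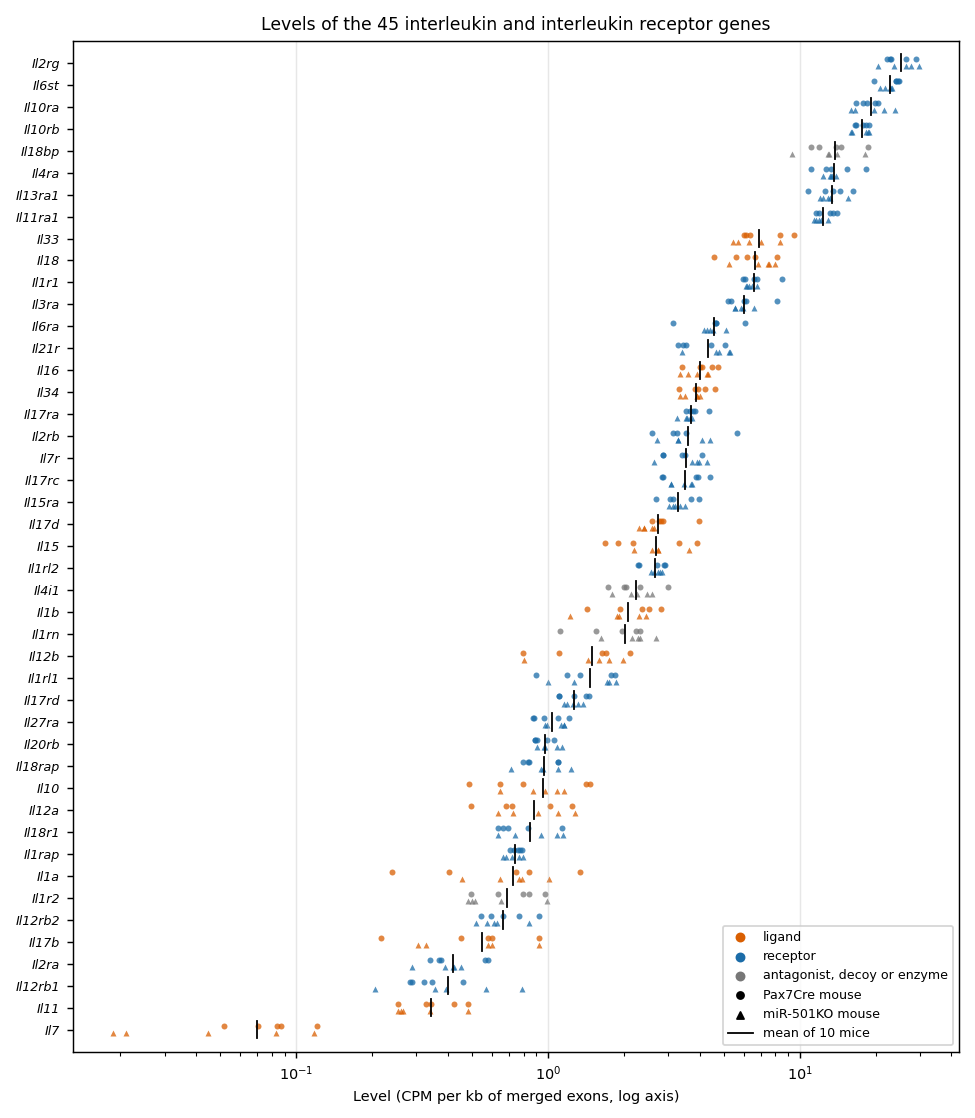
Levels of the 45 genes in CPM per kb of merged exons (log axis), ordered by the mean of 10 mice (black line). Circles are Pax7Cre and triangles miR-501KO mice, with ligands in orange, receptors in blue and the antagonists, decoy receptor and enzyme in grey. The 7 receptors above 10 CPM per kb and the antagonist *Il18bp* head the order, and the highest ligand, *Il33*, has a mean of 6.91.

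The highest ligands per length were *Il33* (6.91 CPM per kb, 5.43 to 9.48 over mice), *Il18* (6.62, 4.56 to 8.12) and *Il16* (4.02, 3.35 to 4.72), followed by *Il34* (3.86). IL-33 is an alarmin released from damaged cells, IL-18 is stored as a precursor that caspase-1 cleaves, IL-16 is a chemoattractant for CD4+ cells, and IL-34 is a ligand of the macrophage receptor CSF1R. *Il33* and *Il18* could not be separated by level, since their ranges over mice overlapped. At the other end, *Il7*, the survival factor for lymphocytes, had a mean of 0.0700 CPM per kb, and *Il11*, a gp130 cytokine, 0.343. Summed over the 27 receptors and the 14 ligands, receptor levels exceeded ligand levels in each of the 10 mice. Part of this excess comes from the larger number of receptor genes. The ratio of the sums was 5.13 ± 0.566 in Pax7Cre and 5.21 ± 0.282 in miR-501KO (SD, n = 5), with the 10 mice between 4.57 and 5.94.

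Many receptors were read in muscle whose ligands were barely read. For 26 receptor chains with a ligand or ligands of an Il symbol known from textbooks, 11 had no ligand among the 45 genes. The 17 ligand genes of these 11 had 248 reads together over all 10 mice, and at most 88 for any single receptor, while the receptors had between 528 and 18052 each. These are raw reads, not corrected for gene length, and show only how little was read of the ligands. The rule on reads fixed part of this contrast beforehand. These receptors had met it, and a ligand that met it would have taken its receptor out of this group. *Il4ra* had the most, 18052 reads, and *Il13ra1* had 10833, against 22 reads over *Il4* and *Il13* together. IL-4 and IL-13 are the type 2 cytokines that act on macrophages and fibro-adipogenic progenitors. *Il4ra* was at 92.5, 66.6, 79.9, 110 and 76.0 CPM in the 5 Pax7Cre mice and at 74.5, 79.9, 79.0, 83.6 and 80.6 in the 5 miR-501KO mice. The miR-501KO mice lay close together and within the range of the controls, of which mouse 4 was highest and mouse 2 lowest.

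*Il6ra*, the specific chain of the IL-6 receptor, had 8654 reads against 85 for *Il6*, a myokine and macrophage product. *Il3ra* had 3934 reads and *Il3* none. *Il21r* had 3183 against 5 for *Il21*, and *Il17ra*, the shared IL-17 receptor chain, had 6990 against 10 over *Il17a*, *Il17c*, *Il17f* and *Il25*. The remaining 5 of the 11 included *Il1rl2*, the IL-36 receptor, with 3967 against 9 over 3 IL-36 genes, and *Il2ra*, the chain that gives high affinity for IL-2, with 528 against 26 for *Il2*. These counts describe mRNA in the muscle at one time point. Ligand protein, ligand made outside the muscle and ligand made at other times were not measured.

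Of the 15 receptors with a ligand among the 45 genes, 9 were above the highest of these ligands per length, and the same number were on coding length. *Il6st* was at 66.7 times *Il11*, *Il7r*, the IL-7 receptor chain, at 50.3 times *Il7*, and *Il11ra1* at 36.2 times *Il11*. On coding length the 3 ratios were 79.9, 56.9 and 75.5. Ligands with other symbols were mostly closer to these receptors. Among the gp130 cytokines, *Il6st* was at 8.84 times *Clcf1* (5.49 on coding length), 19.4 times *Cntf*, 25.5 times *Osm* and 67.8 times *Lif*, and *Il7r* was at 1.38 times *Tslp*, which also signals through it. *Il1r1*, the signalling IL-1 receptor, was at 3.16 times *Il1b*, but the other 4 receptors of the IL-1 family with a ligand among the 45 genes were below theirs. *Il1rl1*, which encodes the IL-33 receptor ST2, stood at 0.212 times *Il33*, *Il18r1* at 0.128 and *Il18rap* at 0.145 times *Il18*. Both IL-12 receptor chains were also below the higher of the IL-12 subunits, with *Il12rb1* at 0.269 and *Il12rb2* at 0.445 times *Il12b*. *Il1rap*, the accessory chain shared by the IL-1, IL-33 and IL-36 receptors, was the remaining one, at 0.107 times *Il33* by merged exons and 0.237 by coding length.

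Within the IL-1 family, *Il1r1* was 7.71 to 10.8 times as high per length as its accessory chain *Il1rap* in each mouse. On coding length this ratio was 3.35 to 4.69. The decoy receptor *Il1r2*, which binds IL-1 without signalling, was low (0.687 CPM per kb). *Il1a* and *Il1b*, the 2 IL-1 genes, had means of 0.725 and 2.08 CPM per kb. The receptor antagonist *Il1rn*, which occupies IL1R1 without activating it, stood at 0.902 ± 0.437 times *Il1b* in Pax7Cre and 1.16 ± 0.220 times in miR-501KO, so the genotypes differed by less than the SD among controls. On coding length the ratios were 1.43 ± 0.695 and 1.85 ± 0.350, so whether *Il1rn* lay above or below *Il1b* depended on the length used. The IL-18 antagonist *Il18bp* was above *Il18* in every mouse, at 1.37 to 3.20 times its level per length. *Il18bp* overlaps *Numa1* on the opposite strand, as *Il11ra1*, *Il12rb2*, *Il16* and *Il27ra* overlap other genes, and the strand setting of the counting is not given in the sources used here.

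In the gp130 family, *Il6st* had 55295 reads over all mice and was 3.98 to 7.95 times as high per length as *Il6ra* in each mouse. In CPM it was at 219, 267, 276, 267 and 272 in Pax7Cre and at 231, 242, 256, 254 and 258 in miR-501KO. Pax7Cre mouse 1 was the lowest of all 10, the other 4 controls were the highest 4, and the groups overlapped through mouse 1. The log2 fold change, miR-501KO over Pax7Cre, was −0.069 ± 0.0845 (SE; edgeR p = 0.427, adjusted p = 1.00; exact permutation p = 0.373), and −0.13 without Pax7Cre mouse 1. *Il11ra1* has near-identical copies named *Il11ra2*, which had no reads here, and its level is uncertain to the extent that reads were assigned among them.

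In the IL-10 family, *Il10ra*, the ligand-binding chain, was far above its ligand. The ratio of *Il10ra* to *Il10* per length was 12.6 to 34.3 over mice. IL-10 is an anti-inflammatory cytokine of macrophages and regulatory T cells. *Il10ra* and *Il10rb* were within 0.878 to 1.30 times each other by merged exons, but *Il10ra* was at 0.427 to 0.632 times *Il10rb* by coding length, so their order was not fixed. In the common gamma family, the shared chain *Il2rg* was 1.44 to 2.40 times *Il4ra* and 4.08 to 8.97 times *Il2rb*, the chain for IL-2 and IL-15. The lowest *Il2rg* to *Il2rb* ratio was in Pax7Cre mouse 2. *Il15ra*, which presents IL-15 to neighbouring cells, was at 0.810 to 1.81 times *Il15* by merged exons and above it in every mouse, at 1.57 to 3.51 times, by coding length.

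No interleukin or receptor gene passed the genotype test. By edgeR's quasi-likelihood test, 0 of the 45 genes had an adjusted p under 0.05, as did 0 of all 14410 genes tested (0%), and DESeq2's Wald test also gave 0. At an unadjusted p under 0.05 there were 0 of 45 by either tool, against 1.05% of all genes tested by edgeR (0.382% higher and 0.666% lower in miR-501KO). The log2 fold change was above 0 in 18 of 45 (40.0%), against 47.9% of all genes. Its median was −0.063 over the ligands (−0.50 to 0.17) and −0.028 over the receptors (−0.17 to 0.46), and −0.0042 over all genes. The 2 groups of mice overlapped for all 45 genes, and over all genes tested 0.139% did not overlap (0.0625% higher and 0.0763% lower in miR-501KO).

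The intervals set the size of change these data allow. The 95% interval of the fold change lay inside 2-fold in either direction for 43 of the 45 genes, the exceptions being *Il12rb1* (log2 −0.20 to 1.13) and *Il7* (−1.48 to 0.48). For *Il7* the log2 fold change of −0.50 became −0.96 without miR-501KO mouse 3 and −0.28 without miR-501KO mouse 1. The 95% interval lay inside 1.5-fold for 24 of the 27 receptors but for only 4 of the 14 ligands (*Il16*, *Il18*, *Il33* and *Il34*). The median SE of the log2 fold change was 0.117 for receptors and 0.244 for ligands. Changes smaller than these intervals were not detectable at this depth and number of mice.

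**Figure D2:**
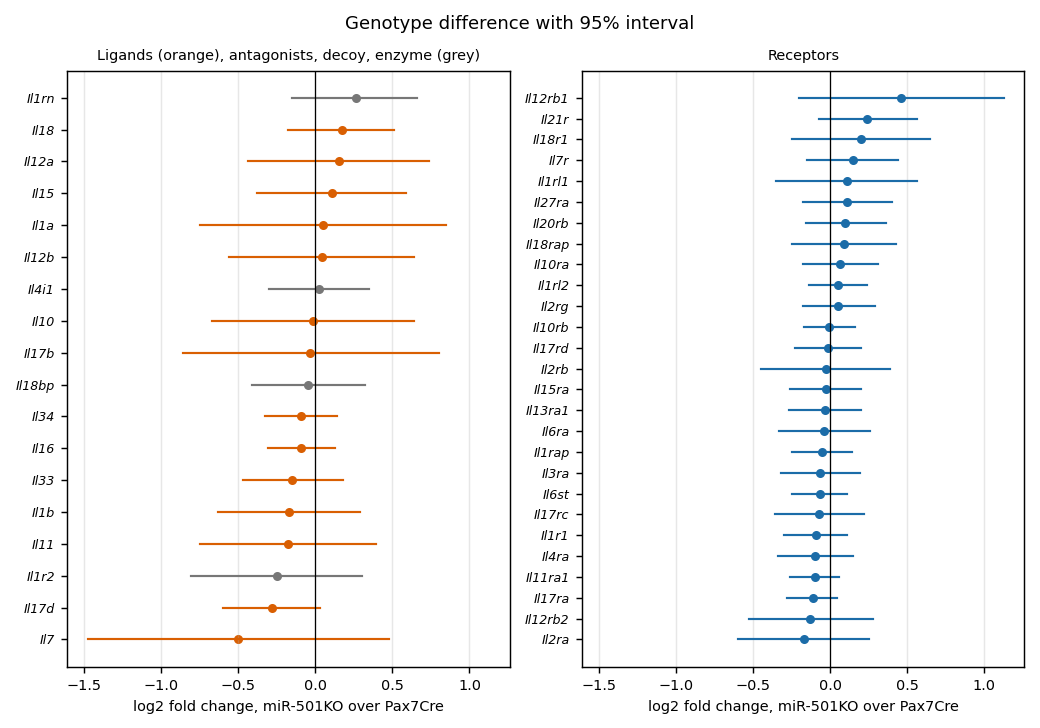
Log2 fold change of each gene, miR-501KO over Pax7Cre, with its 95% interval from edgeR (5 mice per genotype). Ligands are orange, antagonists, decoy receptor and enzyme grey, receptors blue. Every interval spans 0, and most ligand intervals are wider than most receptor intervals, with *Il16* and *Il34* among the exceptions.

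The smallest p belonged to *Il17d* (chr14:57524777-57543166 in GRCm38), an IL-17 family ligand made mainly by non-immune cells. Its levels were 3.31, 3.64, 3.59, 3.53 and 5.09 CPM in Pax7Cre and 2.92, 3.07, 3.37, 3.07 and 3.31 CPM in miR-501KO. The controls were mostly higher, with mouse 5 well above the other 4, and the groups overlapped between 3.31 and 3.37 CPM. The log2 fold change was −0.28 ± 0.144 (SE), with edgeR p = 0.0730, adjusted p = 1.00, and exact two-sided permutation p = 0.0159 on mean log2 CPM. The smallest permutation p that 5 mice against 5 can give is 0.00794, and *Il17d* was the only one of the 45 genes (2.22%) with a permutation p under 0.05, against 1.53% of all genes tested. Without Pax7Cre mouse 5 the log2 fold change was −0.16.

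*Il21r*, the receptor for the T cell cytokine IL-21, was at 14.8, 10.9, 11.7, 16.8 and 11.4 CPM in Pax7Cre and at 17.5, 15.4, 17.4, 11.3 and 15.9 CPM in miR-501KO. High and low mice occurred in both groups, with control mouse 4 among the high and miR-501KO mouse 4 among the low. The log2 fold change was 0.24 ± 0.146 (edgeR p = 0.121, adjusted p = 1.00; exact permutation p = 0.159). Leaving out Pax7Cre mouse 4 gave 0.35 and leaving out miR-501KO mouse 4 gave 0.33, both with an unadjusted p under 0.05 by edgeR. *Il21r* is one of the genes with a seed match, in 1 of its 2 coding transcripts.

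*Il17ra* was at 33.2, 30.5, 31.8, 37.9 and 32.6 CPM in Pax7Cre and at 30.8, 31.7, 28.2, 30.7 and 32.3 in miR-501KO, a log2 fold change of −0.11 ± 0.0747 (edgeR p = 0.150; exact permutation p = 0.103). Without Pax7Cre mouse 4, the highest, it was −0.062. *Il12rb1*, the chain shared by the IL-12 and IL-23 receptors, was at 1.88, 1.42, 1.32, 1.16 and 1.18 CPM in Pax7Cre and at 3.24, 1.46, 1.62, 0.848 and 2.33 in miR-501KO. Its lowest and highest mice were both miR-501KO, so the spread in that group enclosed all controls. The log2 fold change was 0.46 ± 0.306 (edgeR p = 0.154; exact permutation p = 0.357), falling to 0.18 without miR-501KO mouse 1 and rising to 0.64, with an unadjusted p under 0.05 by edgeR, without miR-501KO mouse 4.

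**Figure D3:**
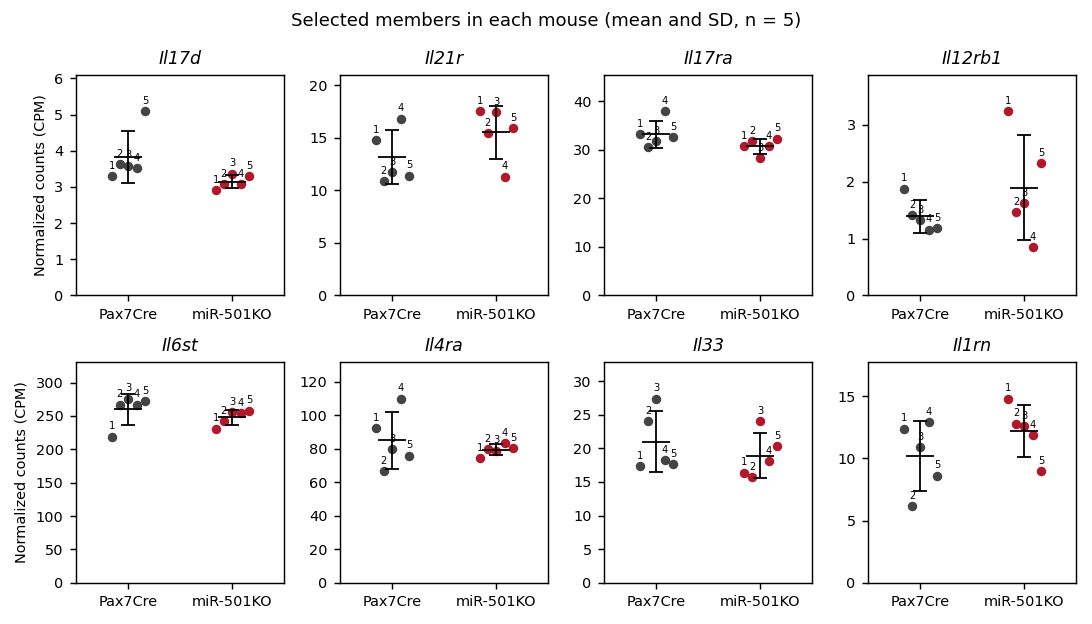
Normalized counts (CPM) in each mouse for the 4 genes with the smallest p (*Il17d*, *Il21r*, *Il17ra*, *Il12rb1*) and for *Il6st*, *Il4ra*, *Il33* and *Il1rn*. Numbers are mouse numbers and bars show mean and SD (n = 5), each panel starting at 0. The groups overlap in every panel, and single control mice stand apart for *Il17d* (mouse 5, 5.09 CPM) and *Il6st* (mouse 1, 219 CPM).

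The 6 genes with a seed match did not move together. Their log2 fold changes were −0.069 for *Il6st*, 0.24 for *Il21r*, 0.053 for *Il1rl2*, −0.013 for *Il17rd*, −0.094 for *Il16* and −0.18 for *Il11*. Leaving out single mice moved some of these, with *Il11* between −0.38 (without miR-501KO mouse 1) and −0.069 (without Pax7Cre mouse 2) and *Il16* between −0.16 (without Pax7Cre mouse 5) and −0.045 (without miR-501KO mouse 4). None had an unadjusted p under 0.05, and the median was −0.041, beside −0.030 for the 39 genes without a match. Over all 1052 genes tested with a match the median was −0.010. Of these, 10 had an unadjusted p under 0.05 by edgeR, a share near the 1.05% of all 14410 genes tested.

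Among the 8 IL-1 family genes on the fixed list of named genes, *Il1rn* had the largest fold change. It was at 12.4, 6.17, 10.9, 12.9 and 8.62 CPM in Pax7Cre and at 14.8, 12.8, 12.6, 11.9 and 8.98 CPM in miR-501KO. Pax7Cre mouse 2 was the lowest of all 10. For *Il1rn* the log2 fold change was 0.26 ± 0.187 (edgeR p = 0.193; exact permutation p = 0.246), and 0.12 without that mouse. *Il33* was at 17.4, 24.1, 27.4, 18.3 and 17.7 CPM in Pax7Cre and at 16.4, 15.7, 24.1, 18.1 and 20.3 CPM in miR-501KO. Both groups held high and low mice for this alarmin, and the log2 fold change was −0.15 ± 0.152 (edgeR p = 0.356; exact permutation p = 0.452). It was −0.030 without Pax7Cre mouse 3 and −0.25 without miR-501KO mouse 3. The others of these genes lay between −0.17 (*Il1b*) and 0.17 (*Il18*). Leaving out single mice put *Il1b* between −0.30 (without Pax7Cre mouse 4) and −0.042 (without miR-501KO mouse 5). It put *Il18* between 0.076 (without Pax7Cre mouse 5) and 0.28 (without Pax7Cre mouse 1).

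Related cytokine and receptor genes and the signalling genes were also without calls. Over all genes tested, 1.05% had an unadjusted p under 0.05 by edgeR, so few or no calls would be found in lists this short. Of 17 cytokine and receptor genes with other symbols (gp130 and common beta chain partners, CSF1 with its receptor and TSLP with its receptor chain), 16 passed the filter, and 0 rose or fell at an unadjusted p under 0.05 by edgeR, with a median log2 fold change of −0.029. *Osm*, which encodes the gp130 cytokine oncostatin M, came nearest at −0.41 ± 0.198 (SE; edgeR adjusted p = 1.00). All 21 JAK, STAT and SOCS genes and all 22 genes of IL-1 processing and signalling passed the filter, again with 0 in either direction and medians of −0.0045 and −0.0023. *Stat3*, the main STAT of gp130, was at 134 ± 15.1 CPM in Pax7Cre and 132 ± 8.87 in miR-501KO. *Socs3*, its feedback inhibitor, was at 29.6 ± 2.03 and 27.6 ± 1.71 CPM.

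Ligand genes varied more between mice than receptor genes. The median coefficient of variation (CV, the SD as a percentage of the mean) was 27.5% in Pax7Cre and 22.7% in miR-501KO for ligands, and 15.4% and 9.28% for receptors. Ligands also had fewer reads, and counting alone gives a median CV of 12.0% for ligands and 5.45% for receptors. Among genes with at least 1000 reads in all, the 5 ligands had 21.2% and 15.4%, and the 21 receptors 15.2% and 8.15%. The 9 ligands below that depth had 35.4% and 28.3%, and the 6 receptors 21.3% and 17.9%. Depth was not matched within either class. The median CV from counting was 7.79% for ligands and 5.02% for receptors in the deeper class, and 17.8% and 12.3% in the other. The SD of log2 CPM was larger in Pax7Cre for 31 of the 45 genes (68.9%), as it was for 79.2% of all genes tested. Among ligands with at least 1000 reads, *Il15* was spread widest, at 7.48, 8.81, 4.91, 4.29 and 3.82 CPM in Pax7Cre and 8.25, 4.96, 6.16, 5.88 and 6.19 CPM in miR-501KO.

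**Figure D4:**
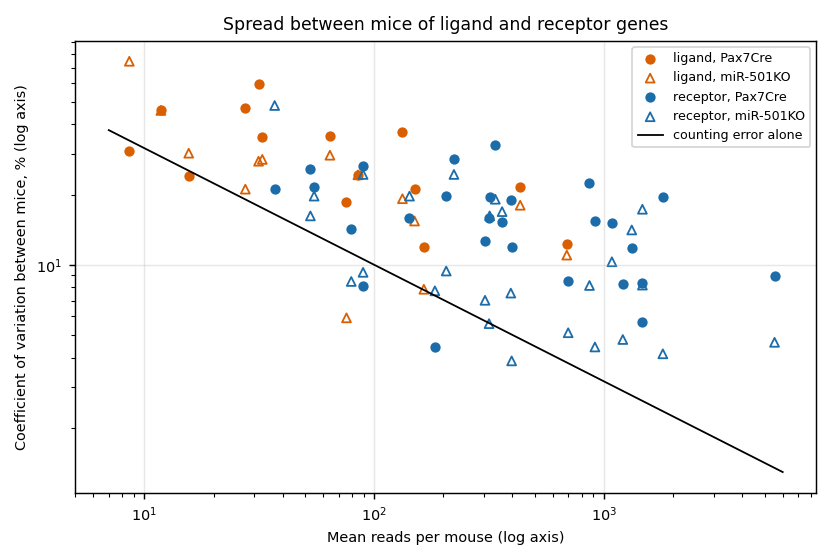
Coefficient of variation between the 5 mice of a genotype (%, log axis) against mean reads per mouse (log axis) for ligands (orange) and receptors (blue), filled for Pax7Cre and open for miR-501KO. The line is the variation expected from counting alone. Ligands sit mostly at the left, with fewer reads, and most genes lie above the line.

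Pax7Cre mouse 2 departed from the other controls in opposite directions for different interleukin genes. Its log2 level minus the mean of the other 4 controls was highest for *Il2rb* (0.86), *Il15* (0.82), *Il12b* (0.74), *Il18r1* (0.69) and *Il7* (0.63). It was lowest for *Il1a* (−1.51), *Il17b* (−1.20), *Il1rn* (−0.83), *Il1rl1* (−0.75) and *Il10* (−0.52). Partners of the high genes were mixed, with *Il12rb2* at 0.51, *Il15ra* at 0.35, *Il18rap* at 0.30 and *Il12rb1* at 0.064, but *Il2rg* at −0.12, *Il18* at −0.16 and *Il7r* at −0.26. In the same mouse, all 9 mature fiber markers, 9 of 10 T and NK cell markers and 5 of 6 endothelial markers were higher than in any other control. Their sums were 51245 CPM (other controls 18947 to 31956), 89.0 (54.3 to 69.0) and 729 (578 to 692). Below every other control were 7 of 11 macrophage, 5 of 7 myogenic progenitor and 4 of 5 regenerating fiber markers, with sums of 5045 CPM (others 5447 to 7125), 421 (518 to 712) and 5043 (5498 to 7347). In the other 4 lists single genes weighed heavily in the sum. The mast cell and ILC2 sum was high (87.9, others 54.7 to 76.8), but only *Rora* of 7 markers was above the other controls. The fibro-adipogenic sum was low (6936, others 7703 to 10660) through *Col1a1* (4795, others 6147 to 9450), while *Dcn*, *Ly6a* and *Lum* were above the other controls. The neutrophil sum (32.0, others 35.0 to 39.2) was mostly *Csf3r* (28.6). *Csf3r*, *S100a8*, *S100a9* and *Mmp8* were below every other control and *Retnlg* was above them. The B and plasma cell sum was 3.22 (others 2.25 to 3.12), with 3 of 6 markers above them. No marker of these lists was at 0 in every mouse, and the part of these cells in the interleukin levels was not tested.

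Mouse 2 was the highest control for 12 of the 45 genes (26.7%, against 28.7% of all genes tested) and the lowest for 11 (24.4%, against 27.6%). Its share of extremes among interleukin genes was thus near that of all genes. Without this mouse, 0 of the 45 genes had an unadjusted p under 0.05 by edgeR, and the share of all genes in that fit is not given here. Of the 30 genes named by rule, 3 changed the sign of their log2 fold change without it, *Il1a* from 0.050 to −0.16, *Il1rl1* from 0.11 to −0.020 and *Il15ra* from −0.030 to 0.042. Another 13 kept their sign and moved by more than 1.5 times. Among these, *Il15* went from 0.11 to 0.29, *Il10* from −0.013 to −0.12, *Il13ra1* from −0.034 to −0.11, *Il4ra* from −0.096 to −0.17 and *Il1rn* from 0.26 to 0.12. *Il33* went from −0.15 to −0.093, *Il16* from −0.094 to −0.046, *Il11* from −0.18 to −0.069, *Il1rl2* from 0.053 to 0.0080 and *Il17rd* from −0.013 to −0.057. The remaining 3 were *Il10rb*, *Il2rg* and *Il7r*, and the largest shift of the 30 was 0.21, for *Il1a*.

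Pax7Cre mouse 4 had a mature fiber sum of 18947 CPM, below every miR-501KO mouse (28526 to 37985), and a myogenic progenitor sum of 712 CPM, above every one of them (528 to 600). Without mouse 4, 1 of the 45 genes, *Il21r*, had an unadjusted p under 0.05 by edgeR. The share of all genes at that threshold in this fit is not given here, so this count has no background beside it. In that fit 5 named genes changed the sign of their log2 fold change, *Il6ra* from −0.038 to 0.080, *Il4ra* from −0.096 to 0.013, *Il1r1* from −0.093 to 0.0046, *Il1a* from 0.050 to −0.11 and *Il10rb* from −0.0051 to 0.0079. The part of the tissue makeup of this mouse in these values was not tested.

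**Figure D5:**
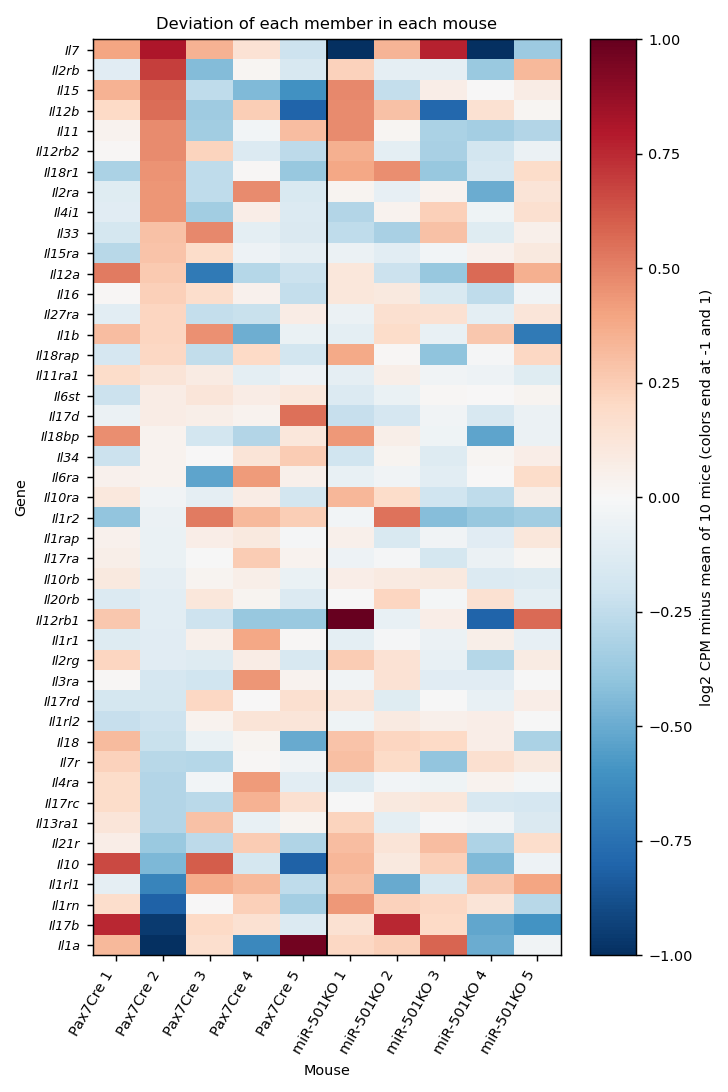
Log2 CPM of each of the 45 genes in each mouse minus the mean of all 10 mice, with colors ending at −1 and 1. Columns are the 5 Pax7Cre and 5 miR-501KO mice, divided by the black line, and rows are ordered by the value in Pax7Cre mouse 2. That column runs from *Il7*, *Il2rb*, *Il15* and *Il12b* at the top to *Il1rn*, *Il17b* and *Il1a* at the bottom, and no block of genes separates the genotypes.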

How the data were processed

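Stranded mRNA libraries of TA muscle from 10 mice were sequenced as single-end reads by the authors. Per the submitters' processing notes they used STAR, featureCounts and R 3.5.1 on GRCm38.p5, and the study's methods name the annotation as ENCODE release 91. The strand setting and the handling of reads matching several genes are not given in the sources used here. The authors deposited raw counts, whole numbers of reads per gene with no normalization, as 1 table for each mouse. Identifiers were matched to GENCODE M21 (25664 of 25700 matched), and 5846 genes had no reads.

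Genotypes were compared by the quasi-likelihood test of edgeR 4.0.16 (R 4.3.3), with libraries scaled by TMM. Low genes were removed with filterByExpr (minimum count 10, minimum total 15), which left 14410, and p-values were adjusted over all of these by Benjamini-Hochberg. All 45 interleukin genes passed this filter. Single genes also had an exact two-sided permutation test over mice of mean log2 CPM (prior count 2, 252 assignments). DESeq2 1.42.0 was an alternative. The steps were tested on simulated data. SE and 95% intervals came from the edgeR fit. Levels per length used all annotated exons merged, or the longest coding transcript. The limit for a gene without reads covers counting error only.

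The genes, lists and tests were chosen with earlier results of these data known. Genes named by rule were 25 fixed ones that met the rule on reads (24 did, *Il6* did not), the 3 ligands and 3 receptors with the highest level per length, the 4 with the smallest p, and those with a seed match, 30 in all. Other genes, the pairs of receptor and ligand and the genes described for Pax7Cre mouse 2 were chosen after their values were seen. *Il17rd* was left out of the pairs. No 2 mice of a genotype differed by only counting noise (chi-square per degree of freedom at least 9.51 over 20 pairs). The labels number the mice without saying what was shared, and name no batch. The study's methods name no test for these counts. The alternatives were DESeq2's size factors and Wald test, other filters, a replicate block, robust estimation, leaving out each mouse, a rule of 1 CPM in 5 files and coding length.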

Additional observations from a re-analysis of the deposited data

Results flagged for a closer look

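In 2 of 90 groups of 5 mice (45 genes in 2 genotypes), 1 mouse lay so far from the other 4 that its gap took over 0.71 of the group's range, where chance alone would give about 4.50. The *Il17d* level of Pax7Cre mouse 5 was 5.09 CPM, with the other controls at 3.31 to 3.64 (gap 0.816 of the range). The *Il6st* level of Pax7Cre mouse 1 was 219 CPM, with the others at 267 to 276 (gap 0.849). Neither was Pax7Cre mouse 2.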

How the results depend on the processing

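The count of 0 genes at an adjusted p under 0.05 stayed 0 under all alternatives run. The count of interleukin genes at an unadjusted p under 0.05 was 0 under every alternative except leaving out a mouse. There it was 0 to 2, with 1 without Pax7Cre mouse 4 and 2 without miR-501KO mouse 4. The share of all genes at that threshold in those fits is not given here, so these counts have no background beside them. For the 30 named genes, 177 of 178 values under the other alternatives kept direction and side of the threshold. The exception was *Il10*, at 0.031 under the replicate block and −0.013 without it. The mouse numbers were not taken as pairs, since the labels name nothing shared and only 3 of the 5 same-number correlations of deviations were above 0.1 (0.337, −0.154, 0.156, −0.305 and 0.204). As a hint from the data only, 5 of 10 mice correlated best with their own number among the 5 mice of the other genotype. Random matching would give fewer, and whether the numbers mark pairs was not tested. The block left the counts of calls at 0 and gave medians of −0.069 for ligands and −0.0080 for receptors. Leaving out a mouse kept 270 of 300 values, put 3 past the threshold and changed the sign of 27, in 13 genes whose log2 fold changes are near 0. Their ranges were −0.18 to 0.20 for *Il10*, −0.017 to 0.13 for *Il10ra*, −0.030 to 0.028 for *Il10rb*, −0.11 to 0.041 for *Il13ra1*, −0.013 to 0.29 for *Il15*, −0.098 to 0.042 for *Il15ra* and −0.057 to 0.041 for *Il17rd*. They were −0.16 to 0.40 for *Il1a*, −0.14 to 0.0046 for *Il1r1*, −0.020 to 0.22 for *Il1rl1*, −0.0089 to 0.12 for *Il2rg*, −0.17 to 0.013 for *Il4ra* and −0.15 to 0.080 for *Il6ra*. The median log2 fold change ranged from −0.12 to −0.0098 over the ligands and from −0.036 to 0.016 over the receptors. On the longest coding transcript the median levels were 2.13 for ligands and 4.55 for receptors, against 1.79 and 3.53, because that length is shorter. A rule of 1 CPM in 5 files kept 11 ligands and 27 receptors. Depth limits the ligands most, since 9 of 14 had under 1000 reads in all.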
